A study of Mus musculus with 721 samples.

Results

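The genes described here are 10 components of the Hippo pathway and its transcription factors in the mouse embryo between the blastocyst and the onset of gastrulation: Yap1, Wwtr1, Tead1, Tead2, Tead3, Tead4, Lats1, Lats2, Amotl2 and Vgll4. They were taken by symbol from the 24483 gene rows of a single-cell RNA-seq count table, and each of the 10 symbols had 1 row. All 10 passed the filter on low counts and were among the 17051 genes tested. They were chosen by name, with earlier results of these data known.

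In the Hippo pathway a kinase cascade ends in the LATS kinases, which phosphorylate the coactivators YAP (Yap1) and TAZ (Wwtr1) and keep them out of the nucleus. Unphosphorylated YAP and TAZ enter the nucleus, where they lack a DNA-binding domain of their own and act through the TEAD proteins. Angiomotin proteins such as AMOTL2 hold YAP and TAZ in the cytoplasm and at cell junctions, and VGLL4 competes with them for TEAD. In the blastocyst the pathway is known for parting outer cells, where YAP and TEAD4 switch on trophectoderm genes, from inner cells, where it is active and YAP stays in the cytoplasm. The control acts largely on phosphorylation and location of proteins, neither of which is measured by mRNA counts.

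The 721 cells came from wild type C57BL/6Babr mouse embryos (spelled C57Bl/6Babr in the labels) with no treatment group, 37 embryos by their titles (the study counts fewer, so some embryos with like numbers at E6.5 may be the same animal), at E3.5 (99 cells), E4.5 (105), E5.5 (267) and E6.5 (250, including cells titled E6.75). Trophectoderm had been lysed by immunosurgery at E3.5 and E4.5, extra-embryonic tissue had been cut away at E6.5, cells were picked by hand, and wells seen to hold a pair of cells were labelled double and kept. Cells were clustered without the 10 genes and their pathway, and each cluster took its name from fixed markers. E3.5 cells, from the inner cell mass (ICM), were kept as 1 class, E4.5 cells fell into epiblast-like and primitive endoderm (PrE)-like classes, later cells into epiblast-like and endoderm-like ones, and a primitive streak-like class was added at E6.5. For every embryo with at least 3 cells of a class their raw counts were added up, so that the embryo is the replicate. This gave 10 sums at E3.5 (99 cells), 5 E4.5 epiblast-like (27 cells), 5 E4.5 PrE-like (78), 8 E5.5 epiblast-like (257), 13 E6.5 epiblast-like (184), 7 E6.5 endoderm-like (33), 1 E5.5 endoderm-like (5) and 1 primitive streak-like (24), with 14 cells left outside. In a sum, fewer expressing cells and less RNA per cell cannot be told apart.

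Single cells held 66896 to 3792936 counts and the sums 1476466 to 49484352, with the shallowest among the E6.5 epiblast-like sums of 3 cells. Levels are given as CPM, which scales a gene's counts to the same total in every sum. A gene listed at 0 in the shallowest E3.5 sum could still have a level of up to 1.24 CPM, the level of 3 counts, and in the shallowest E6.5 epiblast-like sum up to 2.03 CPM. These limits cover counting error only, since the reads carry no molecular identifiers. Fold changes are on the log2 scale with their standard errors (SE), from 1 edgeR quasi-likelihood fit over all classes with Benjamini-Hochberg adjustment over the 17051 genes, and a gene was called at an adjusted p of at most 0.05 with a fitted log2 fold change over 1. The p tests a change of 0, while the study tested whether a change exceeds the limit of 1. In that stricter form 4 of the 12 calls of members held, those of Amotl2 and Tead2 in E4.5 epiblast-like cells and of Amotl2 in PrE-like cells against E3.5, and that of Tead4 from E4.5 to E5.5, and the other 8 were lost.

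On the reference build GRCm38, the coactivator genes lie on chromosome 9 (Yap1, 7931999 to 8004596, minus strand) and chromosome 3 (Wwtr1, 57455649 to 57575910, minus strand). The TEAD genes are spread over chromosome 7 (Tead1, 112679318 to 112906807, plus strand, and Tead2, 45215753 to 45233644, plus strand), chromosome 17 (Tead3, 28331671 to 28350817, minus strand) and chromosome 6 (Tead4, 128224288 to 128300823, minus strand). The kinase genes are Lats1 on chromosome 10 (7681214 to 7716460, plus strand) and Lats2 on chromosome 14 (57689662 to 57758388, minus strand). Amotl2 lies on chromosome 9 (102716672 to 102733418, plus strand) and Vgll4 on chromosome 6 (114860628 to 114969994, minus strand). Counts were made on exons of these genes without strand, and Yap1 shares 116 exon bases with the antisense gene Gm20416, Tead2 13 with Cd37.

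TEAD proteins bind the letters GGAATG, read as CATTCC on the opposite strand, so the start-site windows of the members were searched for these letters on both strands. Of 32851 RefSeq mouse windows (GRCm38.p6, 250 bases before to 50 after a start), 14.7% held the motif, against 8 of 12 windows (66.7%) over the 8 members with an entry and 3 of 12 (25%) over 11 genes of a list of YAP-TEAD targets. Several windows of 1 gene overlap and share a match, so the 12 windows are not independent. The matches of Amotl2, Wwtr1, Yap1, Lats2, Vgll4 and Tead3 are shown, with the farthest upstream of 4 for Tead3, because these genes are parts of the pathway whose own start windows hold the letters. Each line gives 30 bases on the strand of the gene, 5′ to 3′, with the motif in capitals.
Amotl2, chr9:102717727-102717756, plus strand: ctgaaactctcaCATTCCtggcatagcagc
Wwtr1, chr3:57576029-57576058, minus strand: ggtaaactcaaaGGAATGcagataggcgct
Yap1, chr9:8004720-8004749, minus strand: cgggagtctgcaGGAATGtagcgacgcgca
Vgll4, chr6:114969268-114969297, minus strand: cgagtggggtggGGAATGctgagaaatgcc
Lats2, chr14:57746102-57746131, minus strand: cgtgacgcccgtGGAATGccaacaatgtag
Tead3, chr17:28350970-28350999, minus strand: gacgacgagcgaGGAATGgggtgcgcggga
The Amotl2 match starts 65 bases before its start site, the Yap1 match 141 before, the Vgll4 match 82 before and the Tead3 match shown 182 before. The Lats2 match starts 4 bases after its start site. These are RefSeq start sites, and those of Amotl2, Vgll4 and Lats2 lie inside the gene spans given above, as do their matches. The windows of Lats1 and Tead2 did not hold these letters, nor did another window of Lats2 and of Tead3, which says nothing of binding elsewhere. Tead1 and Tead4 had no entry. A match is a description of the sequence and not a site shown to be bound.

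Divided by exon length, so that genes can be compared, the members were led by a different gene before and after implantation. In E3.5 ICM cells Wwtr1 stood first at 22.5 ± 8.10 CPM per kb (SD, n = 10 embryos), above Tead4 at 7.06 ± 6.13 and Yap1 at 5.57 ± 2.96. In E5.5 epiblast-like cells Tead2 stood first at 37.4 ± 8.08 CPM per kb (SD, n = 8), followed by Amotl2 at 9.77 ± 4.36 and Yap1 at 6.47 ± 1.19, and Tead4 stood last at 0.129. In each of these classes the first member lay above the next by more than their spread, which was not so at E4.5.

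In E4.5 epiblast-like cells Tead2 led at 14.5 ± 6.5 CPM per kb (SD, n = 5), and the next 5 members, from Wwtr1 at 5.95 to Lats2 at 4.36, did not differ from their neighbours beyond their spread. In E4.5 PrE-like cells Wwtr1 (13.3 ± 8.06 CPM per kb, SD, n = 5), Tead4 (11.4 ± 5.58), Tead1 (9.08), Amotl2 (8.80) and Yap1 (7.73) likewise lay within each other's spread. At E6.5 Tead2 again led in epiblast-like cells (37.4 ± 25.4 CPM per kb, SD, n = 13), with Yap1 next at 8.81, and in endoderm-like cells (15.0 ± 5.23, n = 7), with Wwtr1 at 9.97, Yap1 at 9.77 and Tead1 at 6.54. Tead3 was the lowest member in every class except E5.5 epiblast-like cells, tied with Vgll4 in the lone E5.5 endoderm-like sum.

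**Figure D1:**
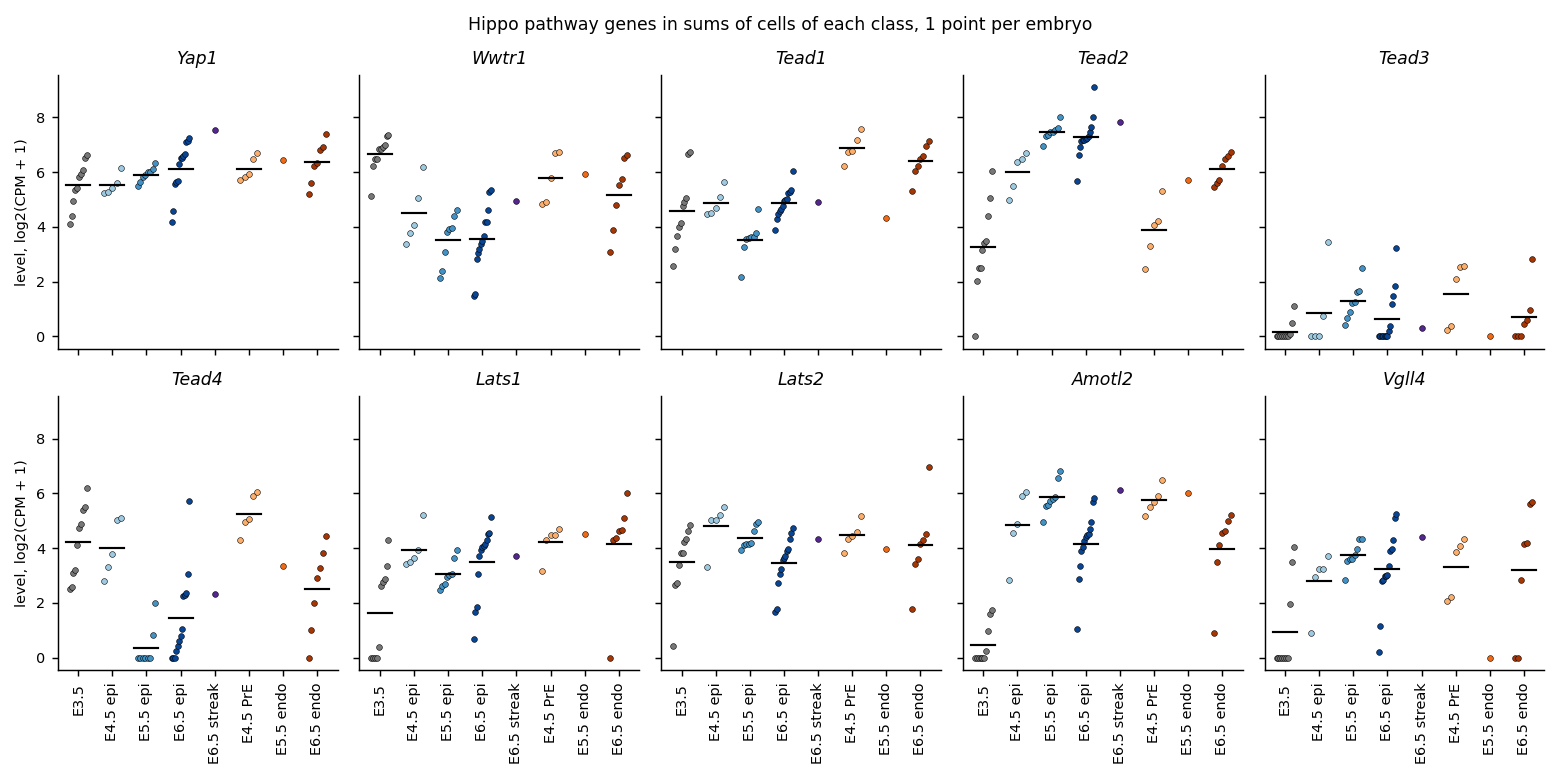
Level of each of the 10 genes as log2(CPM + 1) (y axis) by class of cells (x axis), with 1 point per embryo and a horizontal bar at the mean of the log2 values. Amotl2 lies near 0 at E3.5 and above 6 CPM in every E4.5 sum, Tead2 is higher in E4.5 epiblast-like sums than in most E3.5 ones, Tead4 drops to 0 in 6 of 8 E5.5 epiblast-like sums, and Tead3 stays low throughout.

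From the E3.5 ICM to the E4.5 epiblast-like cells, 2 members rose and 1 fell. The angiomotin gene Amotl2 went from near absence to clear expression, the TEAD gene Tead2 rose with it, and the coactivator gene Wwtr1 fell. Over all genes, 12.9% were called higher and 6.37% lower in this comparison, against 2 and 1 of the 10 members. The median log2 fold change of the members was 1.26, beside 0.0 for all genes tested.

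Amotl2 was listed at 0 in 6 of 10 embryos at E3.5 and at 0.170, 0.968, 1.98 and 2.33 CPM in the others. In the E4.5 epiblast-like sums it was at 6.06, 22.5, 28.4, 58.8 and 65.4 CPM. The groups did not overlap, and the lowest E4.5 embryo lay above the highest E3.5 embryo. This made a log2 fold change of 5.81 ± 0.79 (SE, adjusted p = 1.46e-07), and it was called in 11 of 11 other settings and without each of the 15 embryos in turn.

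Tead2 ranged from 0 through a median of 8.67 to 64.4 CPM over the 10 E3.5 embryos, and was at 30.3, 43.4, 82.5, 87.7 and 103.5 CPM in the E4.5 epiblast-like sums. Most E3.5 embryos lay below the lowest E4.5 value, with overlap from the highest of them. The log2 fold change was 2.16 ± 0.53 (SE, adjusted p = 0.00236), and the call was lost in a fit of only these groups (adjusted p = 0.0884). The coactivator gene Wwtr1 went the other way. Its level was 33.5 to 161.6 CPM at E3.5, with a median of 114.2, and 9.26, 12.7, 15.9, 32.4 and 71.9 CPM in the E4.5 epiblast-like sums. The highest E4.5 embryo overlapped the low end of E3.5, while the other E4.5 embryos lay below all E3.5 ones. The log2 fold change was -1.92 ± 0.64 (SE, adjusted p = 0.0269), and the call was lost against the limit (adjusted p = 0.119), with sums of at least 1 cell (adjusted p = 0.0867) and without E4.5 embryo 1, 2, 4 or 5 (adjusted p up to 0.0866).

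The remaining members did not pass this test. Yap1 was at 16.0 to 96.4 CPM at E3.5 (median 48.7) and 36.6 to 70.3 CPM in the E4.5 epiblast-like sums (log2 fold change -0.14, adjusted p = 0.943), and Tead4 had a log2 fold change of -0.45 (adjusted p = 0.933). The kinase genes had positive values that stayed short of the threshold, 1.82 for Lats1 (adjusted p = 0.148) and 1.17 for Lats2 (adjusted p = 0.196).

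From the E4.5 to the E5.5 epiblast-like cells, Tead4 fell to the edge of detection and no member rose past the threshold. Background calls were 2.71% higher and 3.04% lower, against 0 and 1 of the 10 members, with a median log2 fold change of -0.47 over the members and 0.28 over all genes. Tead4, the TEAD gene best known for its need in the trophectoderm, was at 5.99, 8.87, 12.7, 31.5 and 33.6 CPM in the E4.5 epiblast-like sums. At E5.5 it was listed at 0 in 6 of 8 embryos and at 0.772 and 2.94 CPM in the others. The groups did not overlap. Tead4 had a log2 fold change of -5.29 ± 1.40 (SE, adjusted p = 0.0153), it stayed called without each of the 13 embryos in turn (adjusted p up to 0.0367), and it lost the call when Ward clustering named the cells (adjusted p = 0.0651).

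The level of Tead2 in E5.5 epiblast-like cells was 124 to 259.6 CPM with a median of 173.2, so that every E5.5 embryo lay above every E4.5 one, yet the log2 fold change of 1.37 ± 0.60 (SE) did not pass (adjusted p = 0.163). A fit of only these groups called it (adjusted p = 0.00313). Tead1 went from 20.9, 21.4, 24.5, 32.9 and 48.8 CPM at E4.5 to 3.49 to 24.3 CPM at E5.5 with a median of 11.2, a log2 fold change of -1.35 ± 0.51 (SE, adjusted p = 0.0988) that DESeq2 called (adjusted p = 0.0295). Only the highest E5.5 embryo reached the E4.5 values. Wwtr1 had values of 3.34 to 23.7 CPM at E5.5 (log2 fold change -1.18, adjusted p = 0.233), and Amotl2 had 30.1 to 112.2 CPM (0.76, adjusted p = 0.633).

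From the E5.5 to the E6.5 epiblast-like cells, Tead1 and Tead4 rose, and Tead2 had a mean of 179 CPM at both stages. The background was 5.31% higher and 6.45% lower calls, against 2 and 0 of the 10 members, and the median log2 fold change was 0.11 over the members and -0.0 over all genes. Tead1 was at 13.8 to 64.7 CPM over the 13 E6.5 embryos, with a median of 29.6. The ranges overlapped, with most E6.5 embryos above the highest E5.5 value of 24.3 CPM. Its log2 fold change was 1.38 ± 0.43 (SE, adjusted p = 0.025), called without each of the 21 embryos in turn (adjusted p up to 0.0483) and lost when tested against the log2 limit of 1 (adjusted p = 0.348).

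The rise of Tead4 between these stages rests on low counts. It was listed at 0 in 3 of 13 E6.5 embryos, had a median of 0.748 CPM and reached 52.3 CPM in embryo 1 of plate P1, where a sum of 3 cells held 97 counts. A log2 fold change of 3.55 ± 1.21 (SE, adjusted p = 0.0399) was fitted. It held in 7 of 13 other settings, was too low to be tested in the fit of only these groups, and was lost without that embryo and without E5.5 embryo 2, 3, 4, 6, 7, 8 or 9, with log2 fold changes from 1.99 to 5.37 and an adjusted p of up to 0.204. Tead2 in E6.5 epiblast-like cells ran from 50.2 through a median of 146.6 to 549.9 CPM, the highest in embryo 9, with a log2 fold change of 0.00 (adjusted p = 1.0). Amotl2 had 1.08 to 55.1 CPM with a median of 20.3 (log2 fold change -1.47 ± 0.58, SE, adjusted p = 0.0841), and DESeq2 called it (adjusted p = 0.0412).

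At E6.5 some genes had other means in the embryos without a plate in their titles. Epiblast-like sums without a plate in their titles (4 embryos) had Yap1 at 128.3 ± 26.7 CPM, against 60.7 ± 30.7 CPM in the 9 embryos of plates P1 to P3 (SD), and Amotl2 at 36.3 ± 19.0 against 15.8 ± 9.20 CPM. With plates P1 to P3 alone at E6.5, Amotl2 was called lower than at E5.5 (adjusted p = 0.0479). Among the embryos without a plate, Yap1 was at 139.5 and 135.8 CPM in those titled E6.75 and at 89.2 and 148.9 CPM in the others. The groups thus differ in the age in some titles as well as in the plate, and the part of the plate was not tested.

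Stages were mostly under separate plate labels, with 1 exception, and plates of like name at different stages are not stated to be the same plate. The label P11.P6.P10 covers 1 E3.5 sum and the E5.5 embryos 7 and 8. It names several plates without saying which of them a cell was on. Under this label Wwtr1 was at 113.7 CPM at E3.5 and at 12.97 and 14.6 CPM at E5.5, Tead2 at 10.2 against 173.2 and 194.8 CPM, and Amotl2 at 0.170 against 30.1 and 54.2 CPM. Tead4 was at 28.7 CPM at E3.5 and listed at 0 in both E5.5 embryos. These sums are too few for a test and may come from different plates. In the steps between stages the plate and the stage cannot be told apart.

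From the E3.5 ICM to the E4.5 PrE-like cells, Amotl2 and Tead1 rose and no member fell. Calls over all genes were 13.5% higher and 5% lower, against 2 and 0 of the 10 members, with a median log2 fold change of 1.26 over the members and 0.13 over all genes. This comparison uses the same E3.5 sums as that of the epiblast-like cells, so the pair is not independent. Amotl2 was at 34.7, 44.3, 49.8, 58.8 and 89.2 CPM in the PrE-like sums, all above the E3.5 maximum of 2.33 CPM. Amotl2 thus had a log2 fold change of 6.42 ± 0.80 (SE, adjusted p = 1.65e-08), called in every other setting and without each embryo in turn.

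Tead1, a broadly used TEAD factor, was at 4.93 to 104.9 CPM at E3.5 with a median of 21.3, and at 72.7, 104.8, 108.4, 142.7 and 187.5 CPM in the PrE-like sums. Embryos 1 and 5 of plate P8, at 104.9 and 100.8 CPM, overlapped the PrE-like values and the other E3.5 embryos lay below them. Its log2 fold change was 1.82 ± 0.47 (SE, adjusted p = 0.00455), and the call was lost only in the test against the log2 limit. Wwtr1 in PrE-like cells was at 27.4, 28.8, 53.6, 103 and 105.5 CPM, overlapping E3.5 (log2 fold change -0.75, adjusted p = 0.429). Its low values, 28.1 ± 0.99 CPM on average (SD), were those of the 2 embryos of plate P1, and the 3 of plate P2 averaged 87.4 ± 29.3 CPM. Lats1 had a log2 fold change of 2.04 (adjusted p = 0.102), which was called without the E3.5 sum of cells that have no embryo number (2.65, adjusted p = 0.0346). Tead3 was called without E3.5 embryo 9 (log2 fold change 5.66, adjusted p = 0.0151, beside 3.86 and 0.0646 with it).

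At E4.5 the sister lineages of the blastocyst differed in their TEAD genes, with Tead1 higher in PrE-like cells and Tead2 higher, short of the threshold, in epiblast-like cells. Calls over all genes were 3.25% higher and 2.11% lower in PrE-like cells, against 1 and 0 of the 10 members, and the median log2 fold change was 0.61 over the members and 0.03 over all genes. For Tead1 the levels given above did not overlap, and it was higher in the PrE-like sum in 5 of 5 embryos. Tead1 had a log2 fold change of 2.05 ± 0.59 (SE, adjusted p = 0.0295). This call was not firm, since it held in 10 of 13 other settings and was lost without E4.5 embryo 2, 3, 4 or 5 (adjusted p up to 0.133).

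Tead2 was at 4.54, 8.83, 15.8, 17.5 and 39.0 CPM in the PrE-like sums and lower than in the epiblast-like sum in 5 of 5 embryos, while the highest PrE-like value overlapped the lowest epiblast-like one. The log2 fold change was -2.02 ± 0.66 (SE, adjusted p = 0.056). With the embryo as a block it was called (log2 fold change -2.27, adjusted p = 0.0231), as it was by DESeq2 (-2.03, adjusted p = 0.0149), so that 2 members were called with the block and 1 without it. Wwtr1 was higher in the PrE-like sum in 5 of 5 embryos with a log2 fold change of 1.16 ± 0.68 (SE, adjusted p = 0.318). Yap1 was at 51.7, 55.8, 59.9, 87.2 and 102.9 CPM in PrE-like cells and higher in 4 of 5 embryos (0.61, adjusted p = 0.49), and Tead4 was at 18.4, 30.2, 32.6, 59.4 and 64.9 CPM (1.15, adjusted p = 0.742).

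The endoderm and epiblast classes were not free of each other's markers. The summed level of 23 endoderm markers was 18560 to 30810 CPM in the PrE-like sums, 2085 to 5924 CPM in the E4.5 epiblast-like sums and 513.2 to 2119 CPM at E3.5. The 17 epiblast markers summed to 1252 to 2354 CPM in PrE-like and 4738 to 5960 CPM in E4.5 epiblast-like sums. Wells labelled double held 31 of the 78 PrE-like and 7 of the 27 E4.5 epiblast-like cells. The part of these cells in the lineage differences was not tested beyond leaving the double wells out, which kept the call of Tead1 but not the calls of the TEAD shares given below.

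From the E4.5 PrE-like to the E6.5 endoderm-like cells, Tead2 rose and no other member was called. The background was 3.97% higher and 6.83% lower calls, against 1 and 0 of the 10 members, with medians of -0.04 over the members and -0.06 over all genes. Tead2 in the 7 endoderm-like sums ran from 42.7 through a median of 73.3 to 104.4 CPM, all above the highest PrE-like embryo at 39.0 CPM. Its log2 fold change was 2.07 ± 0.63 (SE, adjusted p = 0.0256). The call was lost with double wells left out and without E4.5 embryo 2, 3 or 4 (adjusted p up to 0.0702). Tead4 had values from 0 through a median of 6.45 to 20.5 CPM in the endoderm-like sums (log2 fold change -2.45 ± 1.33, SE, adjusted p = 0.222), and Amotl2 from 0.873 through 22.6 to 36.1 CPM (-1.46 ± 0.77, SE, adjusted p = 0.209).

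**Figure D2:**
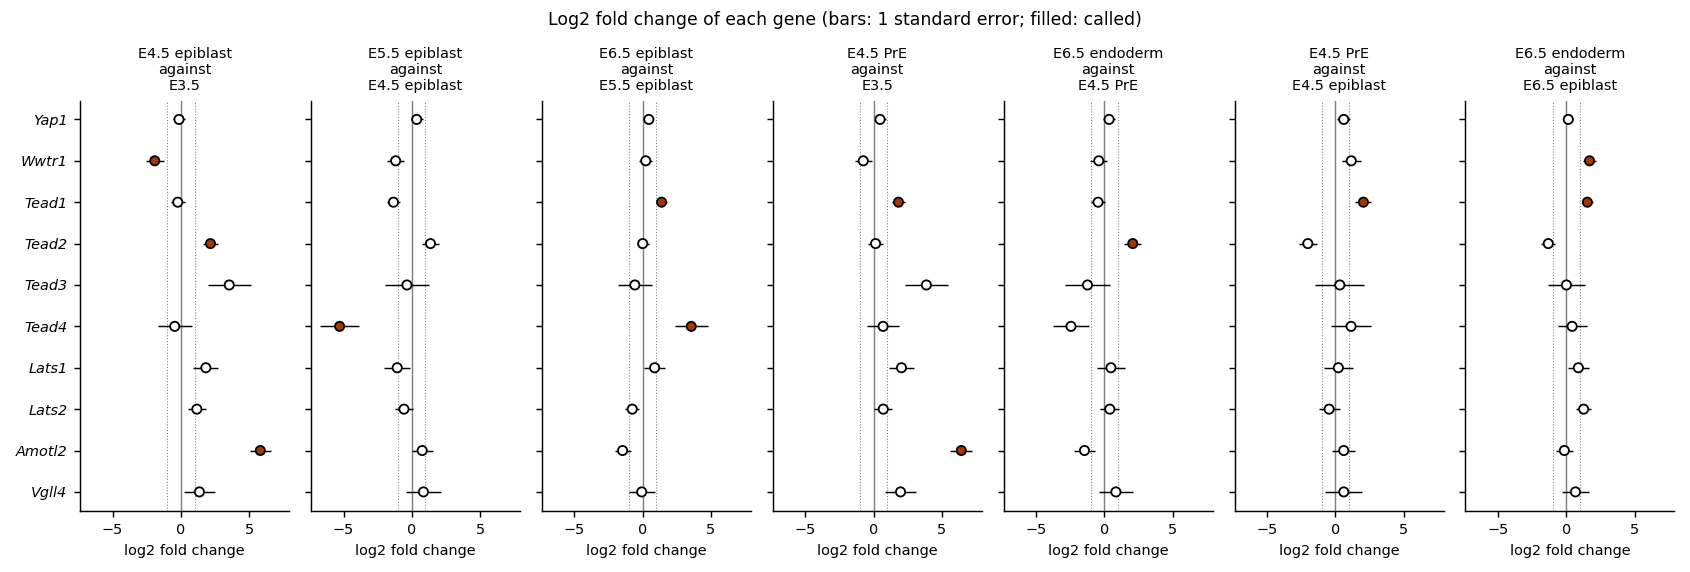
Log2 fold change (x axis) of each of the 10 genes (y axis) in 7 comparisons between classes, with bars of 1 SE, filled points for called genes and dotted lines at -1 and 1. Amotl2 stands at 5.81 and 6.42 in the comparisons with E3.5, Tead4 at -5.29 from E4.5 to E5.5, and Yap1, Lats1, Lats2, Tead3 and Vgll4 have no filled point.

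At E6.5, Wwtr1 and Tead1 were higher in endoderm-like than in epiblast-like cells. Calls over all genes were 6.36% higher and 8.78% lower in endoderm-like cells, against 2 and 0 of the 10 members, with a median log2 fold change of 0.55 over the members and -0.28 over all genes. Tead1 ran from 39.0 through a median of 88.2 to 140.1 CPM in the endoderm-like sums, above most epiblast-like embryos, and was higher in 6 of the 7 embryos that gave both sums. Its log2 fold change was 1.54 ± 0.41 (SE, adjusted p = 0.0081), called without each embryo in turn (adjusted p up to 0.0238), but not with the embryo as a block (adjusted p = 0.158).

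Wwtr1 ran from 7.36 through a median of 45.5 to 98.2 CPM in the endoderm-like and from 1.75 through 10.3 to 39.1 CPM in the epiblast-like sums. The ranges overlapped, and the endoderm-like sum was higher in 6 of 7 embryos. Its log2 fold change was 1.70 ± 0.49 (SE, adjusted p = 0.0131), lost in 5 of 14 other settings, among them the block, and without embryo 5 or 7 (adjusted p up to 0.0673). Tead2 was lower in the endoderm-like sum in 7 of 7 embryos (log2 fold change -1.32 ± 0.50, SE, adjusted p = 0.055), and the block called it (-1.23, adjusted p = 0.0268). With the block 1 member, Tead2, was called and without it 2, Wwtr1 and Tead1.

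The 13 trophectoderm markers summed to 1181 to 2482 CPM in the E6.5 endoderm-like and 221.3 to 808.6 CPM in the E6.5 epiblast-like sums. Most of the former came from Krt8 (782 CPM on average), Krt18 (693 CPM) and Eomes (213 CPM), which endoderm also expresses. Cdx2 was at 5.82 CPM and Elf5 at 1.07 CPM, and all 13 markers had a count in this class. Cells with counts of Elf5, Wnt7b and Tex19.1 had been removed by the authors. The part of any trophectoderm cells in the endoderm-like sums was not tested. At E3.5 the markers summed to 382 to 2057 CPM, led by Tex19.1 at 537 CPM and Krt8 at 186 CPM, with Cdx2 at 16.3 CPM. A sum over this list does not by itself show trophectoderm cells. Tead4 and Wwtr1 are known trophectoderm genes, and the part of any remaining trophectoderm cells in their E3.5 levels was not tested.

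Whether the difference between endoderm-like and epiblast-like cells itself changed from E4.5 to E6.5 was tested as an interaction in edgeR. Taken as endoderm minus epiblast, the value was called higher at E6.5 than at E4.5 in 0.921% of all genes and lower in 2.5%, and in 0 of the 10 members in either direction. At an unadjusted p under 0.05 there were also 0 members, beside 3142 of the 17051 genes. DESeq2 was not run for this term. The values were -0.51 for Tead1 (adjusted p = 0.885), 0.70 for Tead2 (adjusted p = 0.794), 0.54 for Wwtr1 (adjusted p = 0.923) and 1.73 ± 0.95 (SE) for Lats2 (adjusted p = 0.337). A p that misses the threshold does not show that the lineage differences were alike at both stages.

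In the 1 sum of primitive streak-like cells, Yap1 and Amotl2 lay above all 13 epiblast-like sums. Yap1 was at 184.8 CPM there against at most 148.9 CPM, and Amotl2 at 67.98 against at most 55.1 CPM. For both genes the epiblast-like maximum came from the embryo that also gave the streak-like sum. A lone sum can easily lie outside a range, and the share of all genes that did so is not given here. No member was called (log2 fold change 1.18 for Yap1 and 1.62 for Amotl2). The background was 0.0586% higher and 0% lower, so the comparison called almost nothing in any gene. The lone sum, from embryo 2 of those without a plate in the title, is assumed to vary like the other sums. Tead2 was at 228.2, Wwtr1 at 29.4, Tead1 at 29.3 and Tead4 at 3.97 CPM, all within the epiblast-like range. The 15 streak markers summed to 1205 CPM there and to 12.1 to 501.5 CPM in the epiblast-like sums.

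Yap1, Lats1, Lats2, Tead3 and Vgll4 were called in none of the 9 comparisons, the interaction included, in edgeR. At an unadjusted p under 0.05 there were 0 comparisons for Yap1 and Vgll4, 1 for Lats2, 2 for Lats1 and 2 for Tead3, and DESeq2 called only Lats2, in 1 comparison. Of all 17051 genes, 3142 to 5828 were under this unadjusted p in a comparison, the streak aside. For Yap1, the main coactivator, the means of classes with several embryos lay between 46.7 ± 13.8 CPM (SD, n = 5) in E4.5 epiblast-like and 90.5 ± 45.7 CPM (n = 7) in E6.5 endoderm-like cells. At E6.5 the epiblast-like sums spread widely, from 17.2 through a median of 89.2 to 148.9 CPM, and enclosed the E5.5 range of 44.0 to 78.6 CPM.

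The kinase genes were low throughout. Lats1 was listed at 0 in 4 of 10 E3.5 embryos, where it reached at most 18.9 CPM, and its highest class mean was 26.2 ± 19.3 CPM (SD, n = 7) in E6.5 endoderm-like cells. Lats2 had class means from 11.9 ± 7.11 CPM (n = 13) in E6.5 epiblast-like to 30.4 ± 13.2 CPM (n = 5) in E4.5 epiblast-like cells. In E6.5 endoderm-like cells it ran from 2.38 through a median of 16.8 to 122.7 CPM, the highest from 281 counts in the 3 cells of embryo 2 on plate P1. DESeq2 called Lats2 higher in these than in the epiblast-like cells (adjusted p = 0.0199), while edgeR gave 1.27 ± 0.55 (SE, adjusted p = 0.0921). The Lats2 row starts at 57642077 in the count table, the start of the readthrough gene Gm49361, so that it may also take reads of 332 exon bases of its neighbour Xpo4. Xpo4 had levels of 33.8 to 88.8 CPM, on average, over the classes, and its part in the Lats2 counts was not tested.

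Vgll4, the competitor of YAP, was listed at 0 in 7 of 10 E3.5 embryos and reached 2.85, 10.1 and 15.5 CPM in the others. It was found in every E4.5 sum, at 0.858, 6.66, 8.37, 8.39 and 12.1 CPM in epiblast-like and 3.23, 3.59, 13.5, 15.8 and 19.4 CPM in PrE-like cells, and at 6.15 to 19.3 CPM in the E5.5 epiblast-like sums. It was called from E3.5 to PrE-like cells with sums of at least 5 cells (log2 fold change 4.01, adjusted p = 0.0294) and in no other setting. Tead3, best known from the placenta, was listed at 0 in 7 of 10 E3.5 and 7 of 13 E6.5 epiblast-like embryos. It reached at most 9.98 CPM in any sum, in E4.5 epiblast-like embryo 1, and most of its values lay near the limit that a count of 0 allows.

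The balance among related genes was measured as the share of each in the summed CPM per kb of its family, which does not depend on the depth of a sum. There were 42 exact two-sided permutation tests over embryos, of the 4 TEAD shares, the Wwtr1 share of Wwtr1 and Yap1 and the Lats2 share of both LATS genes in 7 comparisons, with Benjamini-Hochberg adjustment over the 42. The shares of a family sum to 100% and are not independent. The leading TEAD gene was not the same before and after implantation. Tead4 made up 52.4% ± 28.8 (SD, n = 10) of TEAD mRNA at E3.5, 23.1% ± 14.5 (n = 5) in E4.5 epiblast-like and 0.349% ± 0.780 (n = 8) in E5.5 epiblast-like cells, while Tead2 made up 23.1% ± 20.7, 64.4% ± 13.6 and 96.7% ± 2.06 in the same order.

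From E3.5 to the E4.5 epiblast-like cells the share of Tead2 rose (exact permutation p = 0.00233, adjusted p = 0.0122), and that of Tead4 had p = 0.0573 (adjusted p = 0.120). From there to E5.5 the shares of Tead2, Tead4 and Tead1 (11.1% ± 5.53 to 2.34% ± 1.27) all changed with p = 0.000777 by the exact permutation test, the smallest that 8 against 5 embryos allow (adjusted p = 0.00758). From E5.5 to E6.5 the share of Tead1 rose to 6.34% ± 3.47 (exact permutation p = 0.00423, adjusted p = 0.0165). Tead2 still held 87.8% ± 15.3 of TEAD mRNA in E6.5 epiblast-like cells, with a low of 38.3% in embryo 1 of plate P1, the embryo with 97 Tead4 counts.

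In the endoderm the mixture was more even. PrE-like cells had 45.7% ± 8.02 Tead4, 39.4% ± 11.5 Tead1 and 13.3% ± 6.62 Tead2 (SD, n = 5), against 11.1% Tead1 and 64.4% Tead2 in epiblast-like cells of the same stage. The groups did not overlap for Tead1 and Tead2 (exact permutation p = 0.00794 for both, the smallest that 5 against 5 allow, adjusted p = 0.0233). Without double wells the adjusted p was 0.117 for Tead1 and 0.0625 for Tead2. Paired within embryos the exact permutation p was 0.0625 for both, the smallest that 5 pairs allow, and it cannot reach 0.05. By E6.5 endoderm-like cells had 61.5% ± 11.3 Tead2, 28.3% ± 12.9 Tead1 and 9.47% ± 10.2 Tead4 (n = 7). Tead2 thus rose and Tead4 fell from PrE-like cells (exact permutation p = 0.00126 for both, adjusted p = 0.00758).

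Within E6.5 the share of Tead1 was higher in endoderm-like than in epiblast-like cells (exact permutation p = 1.29e-05, the smallest that 7 against 13 allow, adjusted p = 0.000542) and that of Tead2 lower (p = 0.00112, adjusted p = 0.00758). Over the 7 pairs from the same embryo the exact permutation p was 0.0156 for both, the smallest for 7 pairs, with an adjusted p of 0.0938. Among the coactivators, Wwtr1 made up 79.0% ± 14.9 of the summed Wwtr1 and Yap1 level at E3.5 and 47.7% ± 14.4 in E4.5 epiblast-like cells (exact permutation p = 0.00300, adjusted p = 0.0140). It made up 27.2% ± 11.2 at E5.5 (p = 0.0148 by the exact permutation test, adjusted p = 0.0388). Of the LATS level, Lats2 held 85.2% ± 17.7 at E3.5 and 55.3% ± 11.8 in PrE-like cells (adjusted p = 0.0233), and 73.5% ± 8.64 at E5.5 against 50.9% ± 19.9 in E6.5 epiblast-like cells (exact permutation p = 0.00826, adjusted p = 0.0233). Lats1 was listed at 0 in 4 of 10 E3.5 embryos, all sums of 3 or 4 cells, which sets their Lats2 share at 100%. In embryo 3 of plate P8 that share rested on 1 Lats2 count.

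**Figure D3:**
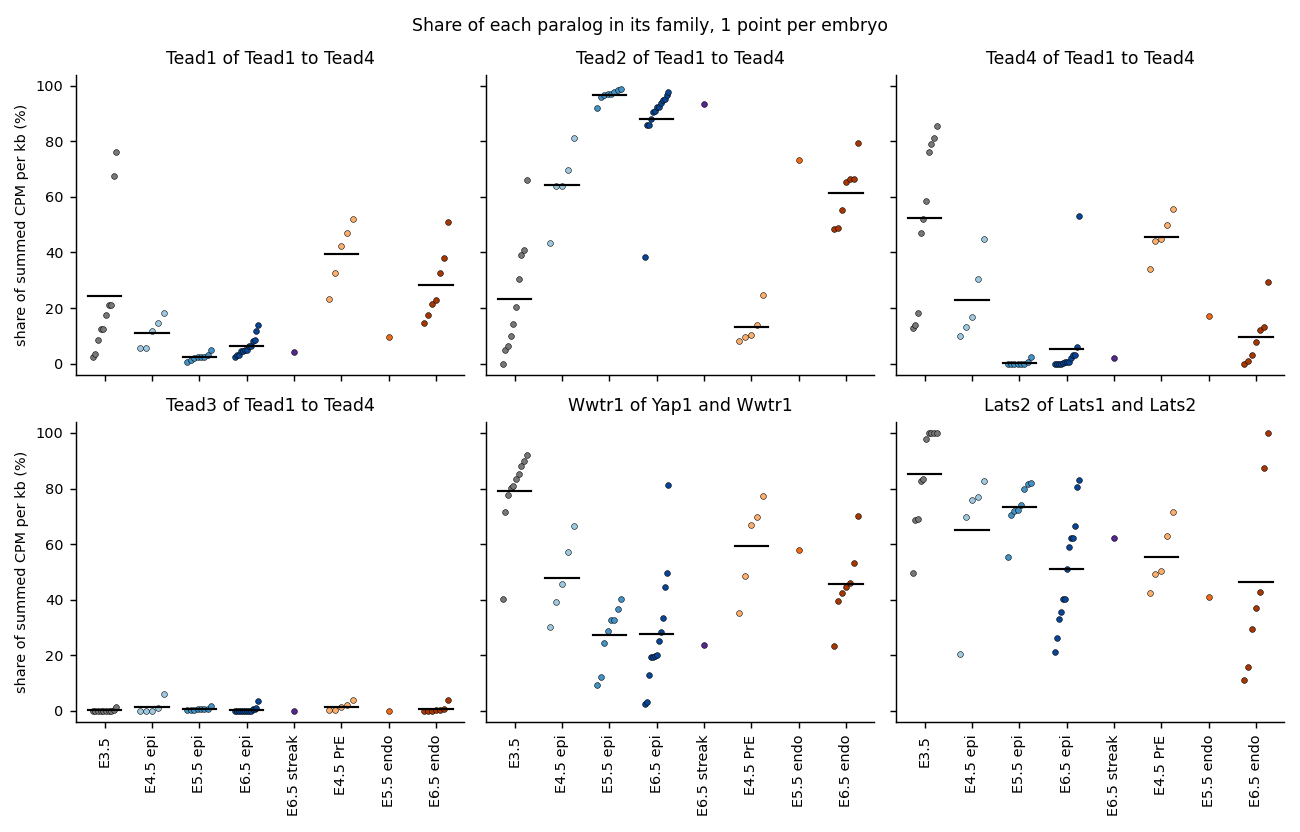
Share in percent (y axis) of Tead1, Tead2, Tead4 and Tead3 in the summed TEAD level, of Wwtr1 in Wwtr1 plus Yap1 and of Lats2 in Lats1 plus Lats2, all in CPM per kb, by class of cells (x axis), with 1 point per embryo and a bar at the mean. Tead2 reaches 92.1% or more in every E5.5 epiblast-like embryo, and Wwtr1 falls from a mean of 79.0% at E3.5 to 27.2% at E5.5.

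Counted cell by cell, Tead2 and Amotl2 went from few cells to most, and Tead4 and Wwtr1 from most to fewer. Tead2 had at least 1 count in 33 of 99 E3.5 cells (33.3%), 85.2% of E4.5 epiblast-like, 60.3% of PrE-like, 258 of 259 E5.5 epiblast-like (99.6%) and 100% of E6.5 epiblast-like cells. Tead4 had a count in 52.5% of E3.5, 63.0% of E4.5 epiblast-like and 78.2% of PrE-like cells, in 3 of 259 E5.5 epiblast-like cells (1.16%) and in 10.3% of E6.5 epiblast-like cells. The 85 counts of Tead4 at E5.5 thus lay in a few cells. Amotl2 had a count in 5 of 99 E3.5 cells (5.05%), in 77.8% of E4.5 epiblast-like and 84.6% of PrE-like cells, and in 77.2% of E5.5 and of E6.5 epiblast-like cells.

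Wwtr1 went from 89.9% of E3.5 cells to 63.0% of E4.5 and 33.2% of E5.5 epiblast-like cells, and Vgll4 from 3 of 99 (3.03%) at E3.5 to 29.6% of E4.5 epiblast-like cells. Both coactivator genes had counts in 73 of 99 E3.5 cells. In E5.5 epiblast-like cells 80 of 259 had both, 133 had only Yap1, 6 only Wwtr1 and 40 neither. Of 78 PrE-like cells 46 had Tead1 and Tead2, 28 only Tead1 and 1 only Tead2, while in E5.5 epiblast-like cells 117 had both and 141 only Tead2. A cell without a count may still hold the mRNA. Wells labelled double count as 1 cell in these shares. They were 9 of 99 at E3.5, 31 of 78 PrE-like, 66 of 259 E5.5 epiblast-like and 10 of 184 E6.5 epiblast-like cells. A pair of genes found in such a well may come from different cells, and the part of these wells in the shares was not tested. With each cell thinned to 300000 counts (46 shallower cells left out), 79 of 80 shares stayed within the 95% exact binomial interval of the unthinned share.

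**Figure D4:**
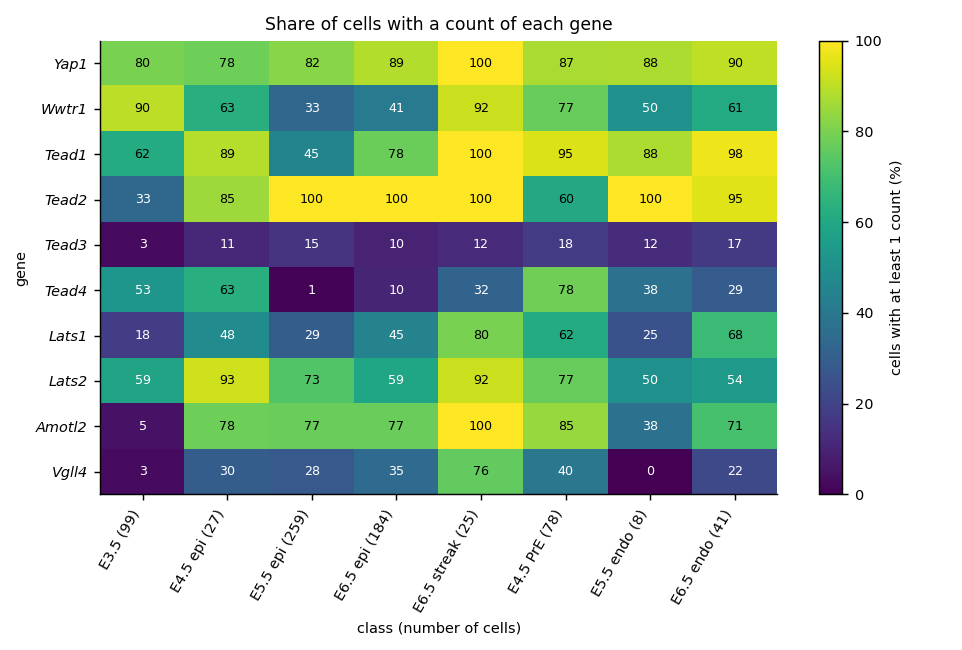
Percent of cells with at least 1 count (colour and printed value) for each of the 10 genes (rows) in each class (columns, with the number of cells). Wells labelled double count as 1 cell. Tead2 goes from 33.3% at E3.5 to 99.6% at E5.5, Tead4 from 52.5% to 1.16%, and Amotl2 from 5.05% at E3.5 to 77.8% in E4.5 epiblast-like cells.

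A list of other Hippo genes, 24 with a row and 22 tested, included genes called in each of the steps from E3.5. It is named upstream here, though it also holds the Vgll4 relatives Vgll2 and Vgll3. Of the 22 tested, 4 rose and 1 fell from E3.5 to E4.5 epiblast-like cells, and 4 rose and 1 fell to PrE-like cells, with median log2 fold changes of 0.27 and 1.16 beside 0.0 and 0.13 over all genes. Over all genes 12.9% and 13.5% were called higher and 6.37% and 5% lower. Ptpn14, a phosphatase that binds YAP, was at 0.175 CPM on average at E3.5, with counts in 1 of 10 embryos, 13.6 ± 12.4 CPM in E4.5 epiblast-like and 160 ± 32.6 CPM in PrE-like cells (SD, n = 5). It rose in both (5.85 ± 0.96, SE, adjusted p = 7.25e-06, and 9.42 ± 1.05, adjusted p = 8.01e-10), was higher in PrE-like than epiblast-like cells (3.57 ± 1.07, adjusted p = 0.0356) and was lower in E6.5 endoderm-like cells (-2.62 ± 0.90, adjusted p = 0.0478). Amotl1, a relative of Amotl2, was listed at 0 in all E3.5 sums and was at least 9.72-fold higher in PrE-like cells, where 3 of 5 embryos had counts, and at least 3.23-fold without the highest of them. Its call in E4.5 epiblast-like cells rested on 29 counts in 1 of 5 embryos. Amotl1 was higher again in the step from PrE-like to E6.5 endoderm-like cells (log2 fold change 4.38 ± 1.33, SE, adjusted p = 0.0261).

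Wwc2, of the KIBRA family that activates the cascade, was higher in the endoderm at both stages, by a log2 fold change of 2.03 ± 0.52 at E4.5 (SE, adjusted p = 0.0116) and 1.06 ± 0.36 at E6.5 (adjusted p = 0.0323). Limd1, an inhibitor of LATS, was higher in PrE-like than in epiblast-like cells (3.2 ± 0.86, adjusted p = 0.0177) and rose in the epiblast-like cells from E4.5 to E5.5 (3.05 ± 0.82, adjusted p = 0.0174). Of the MST kinase genes, Stk4 rose from E3.5 to E4.5 epiblast-like cells (1.59 ± 0.36, adjusted p = 0.00111, named after its values were seen) and from PrE-like to E6.5 endoderm-like cells (1.38 ± 0.42, adjusted p = 0.0253), and Stk3 was higher in E6.5 endoderm-like than in epiblast-like cells (1.58 ± 0.52, adjusted p = 0.0291). Stk38, a kinase related to LATS, fell from E3.5 to PrE-like cells (-2.05 ± 0.58, adjusted p = 0.00927). Amot, the founding angiomotin gene, has no row, and Fat4 (3 counts) and Vgll2 (14 counts) were too low to test.

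Of 18 tested genes on a list of YAP-TEAD targets, 8 rose and 0 fell from E3.5 to the E4.5 epiblast-like cells and 5 rose and 0 fell to PrE-like cells, with medians of 0.5 and 2.2 (1.77 with genes at 0 in a group set at their bound). Over all genes 12.9% and 13.5% rose. Several of these genes were listed at 0 in every E3.5 sum, so the folds are lower bounds against 3 counts over that group. Axl, a receptor tyrosine kinase, was at least 239.5-fold higher in E4.5 epiblast-like cells, with counts in 5 of 5 embryos (187.6-fold without the highest), and at least 67.7-fold higher in PrE-like cells (4 of 5, and 30.9-fold without the highest). Arhgef17 was at least 34.95-fold higher in epiblast-like (4 of 5, and 8.31-fold without the highest) and at least 353.1-fold higher in PrE-like cells (5 of 5, and 266.4-fold). Leaving out the highest embryo was a check added after the data were seen. Nuak2 and Igfbp3 rested on 1 of 5 epiblast-like embryos each.

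Ctgf and Cyr61, well known targets of YAP, fell later. Ankrd1, also on the list, had 20 counts in 4 cells and was too low to test. Ctgf went from 30.4 ± 27.4 CPM (SD, n = 8) in E5.5 to 1.83 ± 3.34 CPM (n = 13) in E6.5 epiblast-like cells (log2 fold change -4.02 ± 0.98, SE, adjusted p = 0.00443). Cyr61 went from 41.4 ± 21.6 to 6.67 ± 7.21 CPM (-2.64 ± 0.85, adjusted p = 0.0322). In this step 2 of the 18 targets rose and 2 fell, with a median of 0.33 beside -0.0 over all genes, of which 5.31% rose and 6.45% fell. From PrE-like to E6.5 endoderm-like cells 2 rose and 3 fell, with a median of -2.84 (-1.74 at the bounds) beside -0.06 over all genes, of which 3.97% rose and 6.83% fell, and Foxf2 was at least 55.9-fold lower (53.8-fold without the highest PrE-like embryo). Between the lineages 2 of the 18 were called lower in PrE-like cells at E4.5, beside 2.11% of all genes. At E6.5 2 were called lower in endoderm-like cells, beside 8.78%. The calls at E4.5, Nuak2 and Igfbp3, rested on counts in 1 of 5 epiblast-like embryos each. From E4.5 to E5.5 epiblast-like cells 0 of the 18 were called, beside 2.71% of all genes higher and 3.04% lower.

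Across the 50 sums, the genes whose log2(CPM + 1) was most like that of Tead2 were Rasgrp2 (Pearson r = 0.849), Prdx2 (0.844) and Trim37 (0.835), and those most like Amotl2 were Agrn (0.863), Fkbp11 (0.838) and Slc38a2 (0.816). For Tead1 they were Kdelr2 (0.779), Hsp90b1 (0.768) and Cst3 (0.748), for Tead4 Nid1 (0.721), Tet2 (0.715) and Pdia5 (0.704), and for Wwtr1 Fam96a (0.744), Stat3 (0.727) and Gna13 (0.727). Among the members themselves, Wwtr1 and Tead2 had r = -0.703, Tead2 and Tead4 -0.631, Wwtr1 and Tead4 0.571, and Tead2 and Amotl2 0.559. These values are a description over sums that share stages, plates and embryos, and carry no test. Yap1 had no gene above 0.626, Lats2 none above 0.612 and Tead3 none above 0.622, and the leading genes of Lats1 (Camsap2, 0.703) and Vgll4 (Cgnl1, 0.661) were also low beside those of Tead2 and Amotl2.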

How the data were processed

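Polyadenylated RNA of hand-picked mouse embryo cells was amplified by the G&T-seq method, made into Nextera XT libraries and sequenced as paired reads. The authors trimmed the reads (Trim Galore 0.4.3 and HISAT2 2.0.5 in the submitters' processing notes), aligned them to GRCm38, kept primary alignments of sufficient mapping quality and counted them on genes with SeqMonk. They removed poor cells, wells with more than a pair of cells, and trophoblast cells recognised by Elf5, Wnt7b and Tex19.1. The deposited table holds unnormalized counts for 24483 gene rows in 721 cells.

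The members and gene lists were chosen with earlier results of these data known. Stage, embryo and plate came from the labels. Cells without an embryo number at E3.5 were taken as 1 embryo. No cells had identical values. Clusters (8 over all cells and 5 at E6.5, consensus of k-means, scikit-learn 1.9.0) were made without 53 pathway genes. Sums of at least 3 cells were tested with edgeR 4.0.16 (TMM, quasi-likelihood test, filter on low counts, R 4.3.3), with all classes in 1 fit. DESeq2 1.42.0, other normalization, filters, clustering, minimum numbers of cells, left-out embryos and the embryo as a block were alternatives. Shares used exact permutation tests (scipy 1.17.1). The code was tested on simulated data. The limit on the log2 fold change was 1 throughout, applied to the fitted value beside a test against 0. The study tested against the limit, 1 or, at E4.5, 2, and that form was an alternative.

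Sums of 2 lineages from 1 embryo share the animal, which pairs them. The correlation of their deviations from the class means was 0.007 to 0.087 over 5 pairs at E4.5 and 0.033 to 0.189 over 7 pairs at E6.5. Named genes are all members, in each comparison the up to 3 called genes of each list (upstream Hippo genes and YAP-TEAD targets) with the largest rise and the largest drop, and the 3 genes most like each member by Pearson r over 50 sums. GENCODE names matched 21730 rows, and positions and exon lengths come from that annotation. P-values measure the spread between embryos as titled, which may share litters.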

Additional observations from a re-analysis of the deposited data

Results flagged for a closer look

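In 19 of 80 groups of 4 to 10 embryos, 1 embryo stood apart from the rest by a gap larger than Dixon's 95% limit for its share of the range, which chance gives in about 1 in 20 groups. Many of these groups hold mostly zeros or a few counts, where 1 embryo with counts is enough. The same embryo often gives both a level and a share. No explanation was tested.

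Among the levels, Lats1 at E3.5 reached 18.86 CPM in the sum without an embryo number (next 9.03), and Lats1 in E4.5 epiblast-like cells 35.78 CPM in embryo 2 (next 14.2). Lats2 in E6.5 endoderm-like cells reached 122.7 CPM in embryo 2 of plate P1 (next 21.7). Tead1 in E5.5 epiblast-like cells reached 24.32 CPM in embryo 1 (next 12.6), and Tead4 in the same embryo 2.943 CPM (next 0.772). Tead2 at E3.5 reached 64.37 CPM in embryo 2 (next 31.9). Tead3 reached 1.173 CPM in E3.5 embryo 9 (next 0.385), 9.982 CPM in E4.5 epiblast-like embryo 1 (next 0.685), 4.614 CPM in E5.5 epiblast-like embryo 8 (next 2.12) and 6.111 CPM in E6.5 endoderm-like cells of embryo 2 titled E6.75 (next 0.952).

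Among the shares of TEAD mRNA, Tead3 stood apart in the same 4 embryos, at 1.319% at E3.5 (next 0.166), 6.003% in E4.5 epiblast-like (next 1.03), 1.823% in E5.5 epiblast-like (next 0.824) and 3.89% in E6.5 endoderm-like cells (next 0.729). E5.5 embryo 1 had the lowest Tead2 share of its class, 92.11% (next 95.95), and the highest Tead4 share, 2.215% (next 0.574). This embryo also had the lowest Lats2 share of LATS mRNA at E5.5, 55.31% (next 70.6). In E4.5 epiblast-like embryo 2 the Lats2 share was 20.49% (next 69.65). Embryo 1 of plate P8 had the lowest Wwtr1 share of coactivator mRNA at E3.5, 40.23% (next 71.6).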

How the results depend on the processing

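No member changed direction while called under any setting run. Relative log expression factors in place of TMM and no filter on low counts changed no call of a member; the former moved the members' log2 fold changes by a median of -0.14 from E4.5 to E5.5 epiblast-like cells, 0.12 between the E6.5 lineages and 0.14 in the interaction, and by at most 0.07 elsewhere. In fits of only the 2 groups Tead3 in 5 comparisons and Tead4 from E5.5 to E6.5 fell under the filter and have no value, as does Tead3 with the block at E4.5. The cause of the changes below was not tested.

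Of the 10 members, 1 was called from E4.5 to E5.5 epiblast-like cells, with 3 in a fit of only the 2 groups, 2 with sums of at least 5 cells, 2 with DESeq2 and 0 with Ward clustering. From E5.5 to E6.5 epiblast-like cells 2 were called, with 0 in the test against the log2 limit and 1 with double wells left out, with at least 5 cells, with Ward clustering or with same-numbered E6.5 embryos merged. From E3.5 to PrE-like cells 2 were called, with 1 against the limit. From PrE-like to E6.5 endoderm-like cells 1 was called, with 0 against the limit or without double wells. Between the E4.5 lineages 1 was called, with 0 against the limit, with at least 1 or at least 5 cells, and 2 with only the 2 groups, merged embryos, DESeq2 or the embryo as a replicate block. Between the E6.5 lineages 2 were called, with 0 against the limit, and 1 with plates P1 to P3 only or the replicate block. Leaving out 1 embryo at a time gave 2 to 4, 1 to 1, 1 to 2, 2 to 3, 0 to 1, 0 to 1 and 1 to 3 called members in the order of E4.5 epiblast-like and later epiblast-like steps, PrE-like against E3.5, the later endoderm, and the E4.5 and E6.5 lineages, and 0 in the streak and interaction.

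Of the share tests, 2 passed from E3.5 to E4.5 epiblast-like cells, with 1 without double wells and 0 with at least 5 cells; 2 to PrE-like cells, with 1 with levels not per length or at least 5 cells; 2 between the E4.5 lineages, with 0 without double wells, with at least 5 cells or with the block; and 2 between the E6.5 lineages, with 1 on plates P1 to P3 and 0 with the block. Leaving out 1 embryo gave 2 to 2, 3 to 4, 2 to 3, 1 to 3, 2 to 2, 0 to 0 and 2 to 3 in the order above. Between the E4.5 lineages the embryos then left are too few for the exact test to pass after adjustment. Their 0 to 0 was thus fixed in advance and says nothing of stability. Sums of at least 5 cells also leave fewer embryos, which raises the smallest p the test can give. The pairing changed no other call of a member.

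Over all genes, these counts moved by more than 1.5 times. From E3.5 to E4.5 epiblast-like cells 3278 genes were called, with 2103 against the limit, 1380 with 2 groups and 1764 with at least 5 cells. From E4.5 to E5.5, 980 were called, with 534 against the limit, 2148 with 2 groups, 639 with at least 1 cell and 616 to 794 without 1 embryo (651, 641 and 616 without E4.5 embryo 2, 3 or 4), and from E5.5 to E6.5 2005, with 893 against the limit, 1290 with 2 groups and 1288 with DESeq2. For PrE-like cells against E3.5 there were 3150, with 1983, 1587 and, with at least 5 cells, 2084; for E6.5 endoderm-like against PrE-like 1842, with 976 and 876. Between the E4.5 lineages there were 915, with 390 against the limit, 1396 with 2 groups, 569 with at least 1 cell, 1461 with the block, 1551 with DESeq2 and 400 to 528 without 1 embryo. Between the E6.5 lineages there were 2582, with 1342, 1009, 1388 on plates P1 to P3, 1674 without cells titled E6.75 and 589 with the block. For the streak 10 genes were called, with 5 with 2 groups, 4 without double wells, 63 with at least 1 cell, 3 with at least 5 cells, merged embryos or the block, 27 with DESeq2 and 3 to 9 without 1 embryo (3 or 4 without embryo 1 or 2 of plate P1, 4, 7, 8 or the second titled E6.75); the interaction gave 583, with 184 with the block and 195 to 642 without 1 embryo (286 or fewer without each E4.5 embryo). DESeq2 moved the balance of higher and lower calls, to 1643 and 1459 (edgeR 2192 and 1086) for E4.5 epiblast-like cells against E3.5, 733 and 471 (462 and 518) for E5.5 against E4.5, 730 and 558 (906 and 1099) for E6.5 against E5.5 and 1658 and 1084 (2298 and 852) for PrE-like cells against E3.5. With only the 2 groups in the fit these became 556 and 824, 1346 and 802, 759 and 531, and 818 and 769 in the same order, and 461 and 415 (677 and 1165) for E6.5 endoderm-like against PrE-like and 566 and 443 (1085 and 1497) for the E6.5 lineages. Depth limits Tead3, Tead4 after E4.5 and Vgll4 most, since their sums often hold few counts, and sums of 3 cells weigh as much in a class mean as sums of 54.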

Other observations

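The lone E5.5 endoderm-like sum, 5 cells of embryo 7, enters no comparison. Per kb of exon its members were led by Wwtr1 at 12.7 CPM per kb, Tead2 at 10.7, Amotl2 at 10.02 and Yap1 at 9.28. Tead2 made up 73.2%, Tead4 17.3% and Tead1 9.54% of its TEAD mRNA, so that Tead2 lay between the means of PrE-like (13.3%) and E5.5 epiblast-like cells (96.7%). With 1 embryo it has no replicate check.

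Among the genes of the list named upstream, the kinase gene Taok3 rose from E3.5 to E4.5 epiblast-like cells (log2 fold change 2.59 ± 0.98, SE, edgeR adjusted p = 0.0468) and, in a value picked after it was seen, to PrE-like cells (5.23 ± 0.99, adjusted p = 7.52e-05). In the former Wwc2 fell (-1.25 ± 0.46, adjusted p = 0.0439). Taok1 rose from E5.5 to E6.5 epiblast-like cells (1.12 ± 0.34, adjusted p = 0.0241). Dchs1, an atypical cadherin, had 30 counts in 3 of 8 E5.5 embryos and was at least 6.71-fold lower at E6.5 (1.71-fold without the highest embryo). Vgll3, a relative of Vgll4, was at least 175.2-fold higher in PrE-like cells than at E3.5, with counts in 3 of 5 embryos, of which 1 held 579 of the 595 counts, and at least 9.11-fold without it.

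Among the targets, Ccdc80 was at least 115.3-fold higher in E6.5 than in E5.5 epiblast-like cells, with counts in 6 of 13 embryos (83.4-fold without the highest), and at least 17.1-fold lower in E6.5 endoderm-like cells. Tgfb2, a growth factor gene, was at least 54.5-fold lower in E6.5 endoderm-like than in epiblast-like cells (27.2-fold without the highest embryo). Rbms3 had 1 count at E5.5 and 101 at E6.5, a ratio of 150.5 with a 95% counting interval of 26.4 to 6004. Dock5 fell from PrE-like to E6.5 endoderm-like cells (-3.10 ± 0.98, adjusted p = 0.0315). These folds are given as values, and several rest on a minority of embryos.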
